A study of Homo sapiens with 4 samples.

Results

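The genes described here are CDKN2A, CDKN2B, RB1, NF1, NF2, BAP1 and APC, all tumour suppressors, and MTAP, the enzyme gene beside CDKN2A. They are 8 of 19974 protein-coding genes on chromosomes 1 to 22 and X. They were chosen by name, with the positions and tag counts of this peak list already known, and each is described by the CTCF peaks in the gene and 300 kb on either side (hg38). The 3 genes on the short arm of chromosome 9 (CDKN2A, CDKN2B and MTAP, at 9p21) share 1 merged window, which leaves 6 windows with 91 of 42388 peaks. The cells were MDA-MB-435, an established line labelled as melanoma, and CTCF sites had been mapped in them by ChIP-seq, the sequencing of DNA that an antibody pulls down with its protein. The series held 4 samples: 2 replicates of asynchronous cells (Millipore rabbit antibody against CTCF) and 2 of mitotic cells, arrested with nocodazole after a thymidine block, with a custom rabbit antibody to the pT431 form of CTCF. The values below come from asynchronous replicate 1, a library of 19210460 tags. No value below therefore has a replicate check, no comparison of conditions was made and no test was run, and a peak list gives no expression by which to check the cell type.

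CTCF is a zinc finger protein that binds DNA at insulators and at the anchors of chromatin loops held by cohesin. Its sites often lie between neighbouring regulatory domains and near promoters. At 9p21, CDKN2A encodes p16INK4a, an inhibitor of the kinases CDK4 and CDK6, and from another first exon ARF, which restrains MDM2. CDKN2B encodes p15INK4b, a kinase inhibitor of the same family. MTAP, methylthioadenosine phosphorylase, recycles a by-product of polyamine synthesis. The INK4 inhibitors keep the RB1 protein in its active form, in which it holds back E2F transcription factors. Neurofibromin (NF1) switches off RAS, merlin (NF2) acts upstream of the Hippo kinases, BAP1 removes ubiquitin from histone H2A, and APC is a scaffold of the complex that marks beta-catenin for destruction.

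To show what lies at starts with and without a peak, the 250 bases before a listed RefSeq start (GRCh38.p14) are given for 5 starts, each 5′ to 3′ in the direction of its gene. NF2 is the one member with a peak at an end. MED4, below RB1, carries the strongest peak of the 6 windows, at its listed start. The 3 starts of CDKN2A and CDKN2B lie in the peak-free stretch of 9p21. Capitals mark matches to AGNNGGC on either strand, and all 12 bases where CCANN stood directly before it, which gives the core of the CTCF consensus with its variable positions as N. The shorter motif is thus part of the longer.
NF2, start at 29603633 (chr22:29603383-29603632, plus strand): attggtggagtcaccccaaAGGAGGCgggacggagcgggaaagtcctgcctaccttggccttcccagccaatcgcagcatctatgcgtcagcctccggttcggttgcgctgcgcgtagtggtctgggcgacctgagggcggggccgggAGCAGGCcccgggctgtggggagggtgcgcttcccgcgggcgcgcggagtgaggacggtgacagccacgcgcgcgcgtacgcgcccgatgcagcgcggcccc
MED4, next to RB1 (chr13:48095105-48095354, minus strand): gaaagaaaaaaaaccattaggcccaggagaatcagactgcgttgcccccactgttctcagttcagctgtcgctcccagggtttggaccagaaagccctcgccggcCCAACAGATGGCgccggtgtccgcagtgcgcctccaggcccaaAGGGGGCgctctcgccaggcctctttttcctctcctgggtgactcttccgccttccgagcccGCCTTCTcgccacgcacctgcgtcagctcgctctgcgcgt
CDKN2A, start at 21995324 (chr9:21995325-21995574, minus strand): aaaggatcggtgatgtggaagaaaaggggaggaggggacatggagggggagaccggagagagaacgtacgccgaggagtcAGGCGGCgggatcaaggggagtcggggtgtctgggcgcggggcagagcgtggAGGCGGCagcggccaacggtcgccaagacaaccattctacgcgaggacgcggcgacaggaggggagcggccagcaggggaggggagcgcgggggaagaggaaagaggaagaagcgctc
CDKN2A, start at 21974857 (chr9:21974858-21975107, minus strand): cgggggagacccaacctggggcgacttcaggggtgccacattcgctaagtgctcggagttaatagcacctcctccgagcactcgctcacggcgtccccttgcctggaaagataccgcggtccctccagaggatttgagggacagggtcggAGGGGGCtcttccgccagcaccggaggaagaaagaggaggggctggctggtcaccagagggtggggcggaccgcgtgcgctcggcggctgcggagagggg
CDKN2B, start at 22009305 (chr9:22009306-22009555, minus strand): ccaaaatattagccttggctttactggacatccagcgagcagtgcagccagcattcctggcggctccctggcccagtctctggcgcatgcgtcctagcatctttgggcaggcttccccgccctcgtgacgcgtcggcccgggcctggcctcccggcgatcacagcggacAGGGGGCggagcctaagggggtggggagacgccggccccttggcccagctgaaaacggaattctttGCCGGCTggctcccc

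The longer motif was found in MED4 as CCAACAGATGGC, 145 to 134 bases before the start and 36 bp from the peak centre. That promoter held 3 matches to the shorter motif, and the one marked AGGGGGC lay nearer the peak centre. The longer motif was in none of the 10 listed promoters of the members, which cover 7 of the 8 genes (for RB1 only a start within the gene, at 48476450). The NF2 promoter shown held 2 matches to the shorter motif, the upper CDKN2A start 2, the lower CDKN2A start 1 and CDKN2B 2. Over 34683 promoters of this length, 2.03% held the longer motif and 57.5% the shorter one. Of the 2057 promoters with a peak centre in the 250 bases, 11.2% held the longer motif, against 1.45% of the 32626 without one. For the shorter motif the shares were 81.1% and 56%. Of the 8 promoters in the windows that hold a peak centre, 6 lacked the longer motif, that of NF2 among them. Overlapping promoters of THOC5 shared the same peak, so the 8 are not all separate sites. Neither motif told the NF2 start from those of CDKN2A and CDKN2B.

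Peaks at the gene ends were counted first. A single member, NF2, had a peak within 1 kb of an annotated gene end, 1 of 8, where 28.2% of all protein-coding genes had one. The members just outside that limit were APC, with a peak 2190 bp beyond its upper end, BAP1, with a peak 2240 bp beyond its upper end, and NF1, with a peak 4321 bp inside its upper end. With a limit of 5 kb these 3 joined NF2, which made 4 of 8, beside 52.9% of all genes, so that the count at 1 kb does not set the members apart. Peaks inside the gene were found in 5 of the 8 members (MTAP, RB1, NF1, NF2 and APC), beside 48.9% of all genes, and the members are long, with a median of 116760 bp against 24170 bp. The other 53 protein-coding genes that overlap the windows had an end peak in 18 cases (34.0%). By window it was 3 of 7 at RB1, 1 of 9 at NF1, 6 of 12 at NF2, 6 of 20 at BAP1 and 2 of 5 at APC.

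Peaks inside the members were weak to middling. Tag counts are given as normalised tags, the number per 10000000 tags of the library, with exact Poisson 95% intervals that cover counting error only. The 12 peaks inside members held 9.89 to 29.9 normalised tags, and 6 of the 12 were at or above the autosomal median of 20.3. Over the whole windows 57 of 91 peaks were at or above it, and the window peaks ran from 7.55 to 137.2 with a median of 25. Every window peak above 29.9 thus lay outside the members. The flanks also held most of the peaks, and some of these lay inside other genes.

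**Figure D1:**
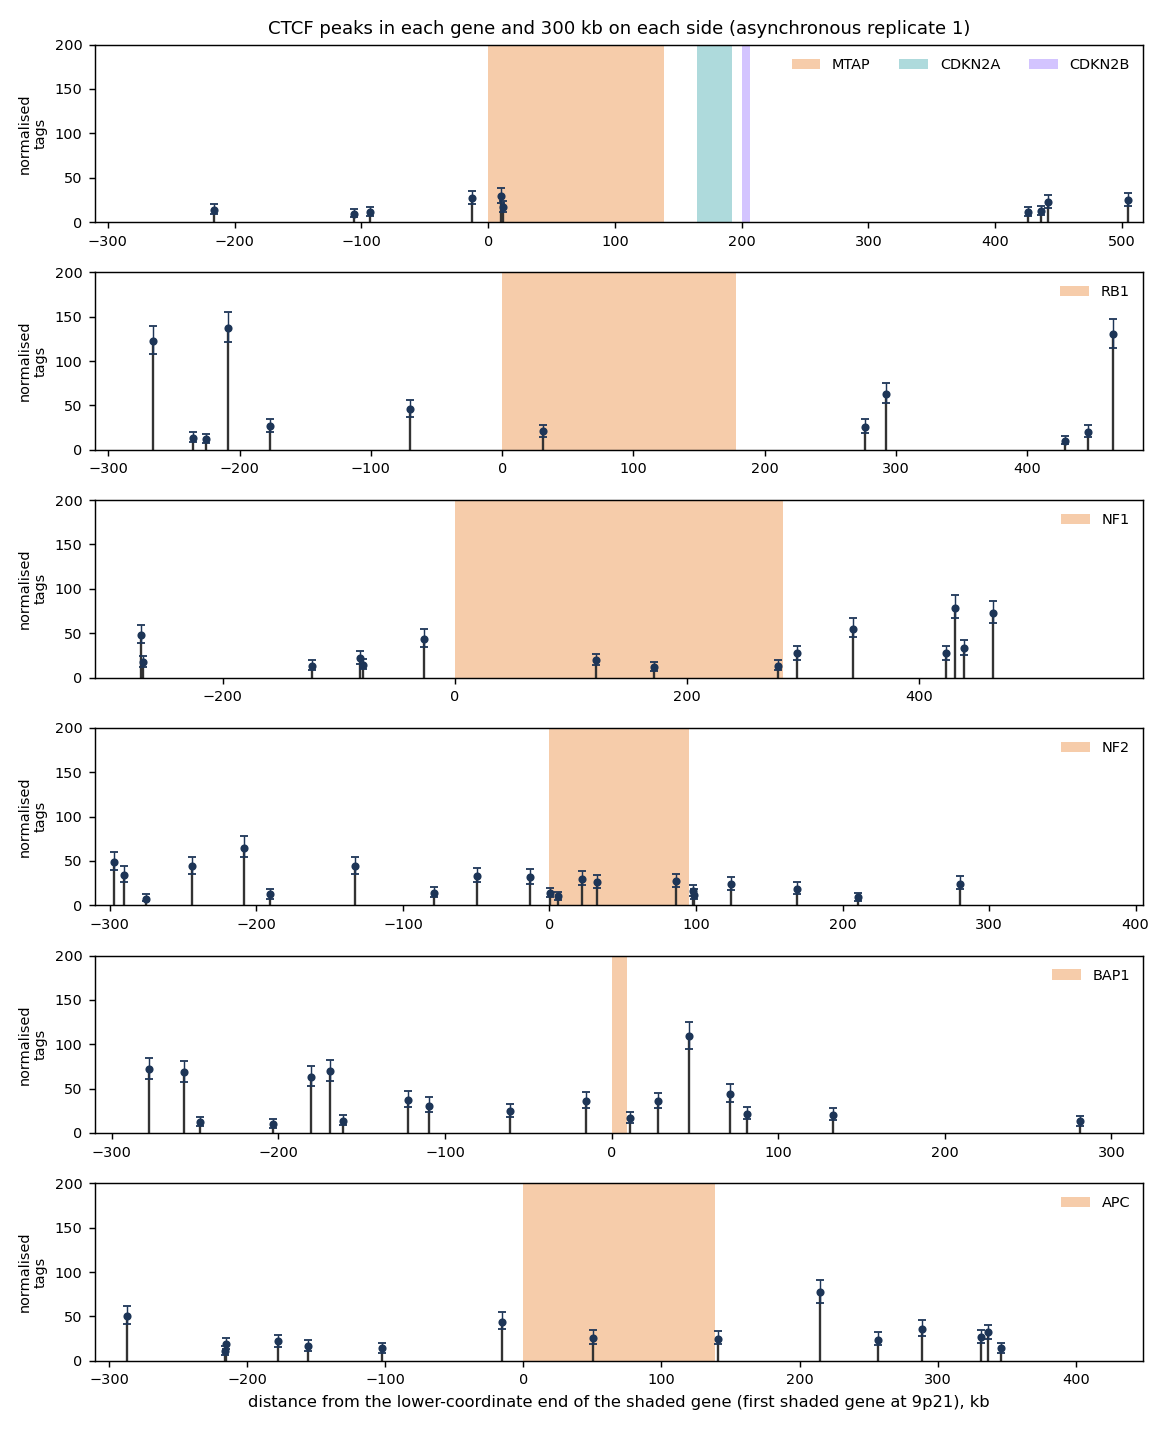
Each panel plots the CTCF peaks of 1 window as lines topped by points (normalised tags per peak, y axis, with Poisson 95% intervals) against distance from the lower-coordinate end of the shaded gene in kb (x axis). The 9p21 panel has no peak above 29.2 normalised tags and an empty stretch over CDKN2A and CDKN2B, while the RB1 panel reaches 137.2 in its lower flank and 130.4 in its upper.

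The 9p21 genes lay in the longest peak-free stretch of the 6 windows. CDKN2A (chromosome 9, 21967752 to 21995324, minus strand) and CDKN2B (22002903 to 22009313, minus strand) had no peak inside and none near an end. The nearest peak to CDKN2A was 153.7 kb below its lower end, and the nearest to CDKN2B was 188.9 kb below its lower end. MTAP (21802636 to 21941115, plus strand) had 2 peaks inside, both close to its start. The stretch without a called peak began at the second of them, centred at 21814022, and ended at a peak centred at 22228728. It was 414.7 kb long and held CDKN2A, CDKN2B, the upper 91.8% of MTAP, the pseudogene UBA52P6 and 3 RNA genes, among them all of CDKN2B-AS1, the antisense RNA also called ANRIL.

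Stretches of this length were uncommon but not rare. Of all protein-coding genes 2.99% (597 of 19974, CDKN2A and CDKN2B among them) lay whole in a stretch at least as long, and on chromosome 9 it was 28 of 778 genes. Among genes with no peak inside, the median stretch was 79.7 kb. Of 42365 intervals between neighbouring peaks, 593 (1.40%) were as long, intervals across centromeres included, and on chromosome 9 it was 25 of 1771. A distance of 153.7 kb or more from the nearer end to a peak, as at CDKN2A, was found for 1.97% of genes. The 6 windows held 10 whole stretches of at least 100 kb, and the next longest of these, over the upper part of RB1, was 245.6 kb. Stretches that crossed a window limit were not counted. One of them, above NF1, was 283.8 kb long. As long or longer were 3.29% of all intervals and 1.43% of those on chromosome 17.

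The peaks on either side of the stretch were modest. Below it, the 2 peaks inside MTAP held 29.2 normalised tags (22 to 37.9) at 10.5 kb from the gene's lower end and 16.7 (11.4 to 23.5) at 11.4 kb, and were 878 bp apart. Another peak, 13.025 kb outside the start of MTAP, held 27.1 (20.2 to 35.5). These 3 peaks cluster within 25 kb around the MTAP start. Above the stretch, the first peaks held 11.5 (7.18 to 17.3), 12.5 (8 to 18.6), 22.6 (16.2 to 30.2) and 25 normalised tags (18.4 to 33.1). The next protein-coding gene above them, DMRTA1, starts 218.1 kb from the peak that ends the stretch. The remaining 3 peaks of the lower flank held 13.3, 8.59 and 11.5.

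No strong peak was found in the 9p21 window. Its 10 peaks gave 12.4 per Mb (Poisson 95% interval 5.94 to 22.8, counting error only), beside a median of 21.4 per Mb around single protein-coding genes. Windows as sparse or sparser than those of CDKN2A, CDKN2B and MTAP taken singly were found for 16.5%, 18.3% and 11.6% of genes. The strongest peak at 9p21, at 29.2, was exceeded by 34 of the 81 peaks of the other 5 windows. Of all genes 8.48% had no stronger peak within 300 kb. No other protein-coding gene overlapped the window. Just outside it, IFNE of the type I interferon genes lay in a peak-free interval of 113.2 kb below, and a peak of 25.5 normalised tags lay in DMRTA1 above, 138 kb beyond the window.

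**Figure D2:**
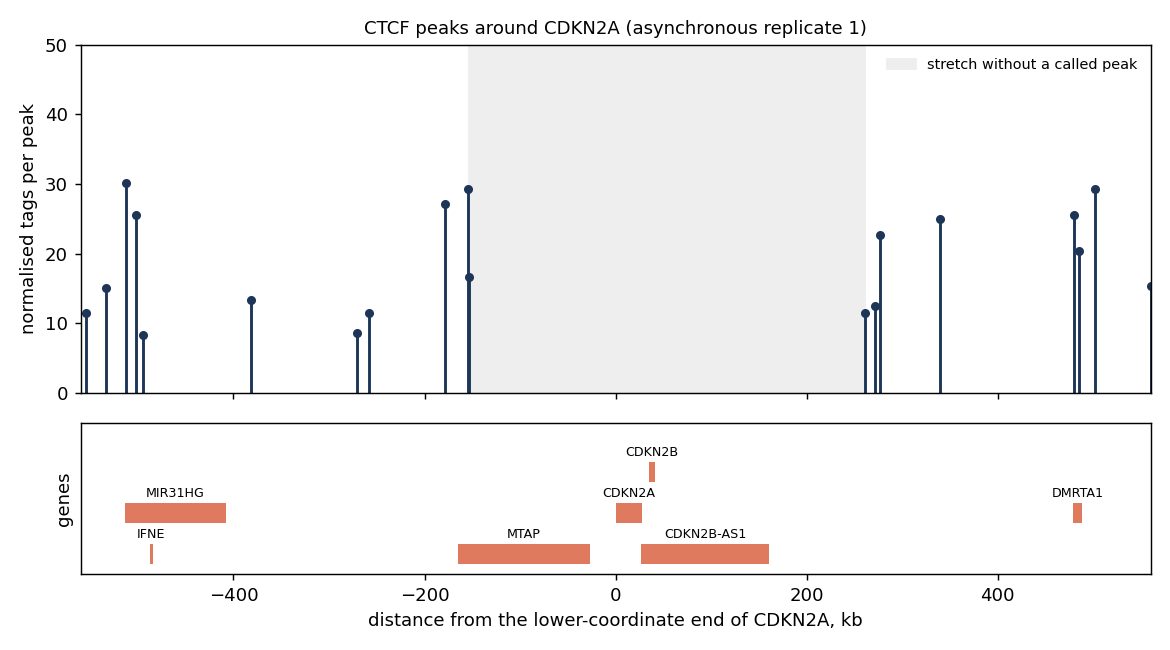
The upper panel plots normalised tags per CTCF peak (y axis) against distance from the lower-coordinate end of CDKN2A in kb (x axis), and the lower panel shows annotated genes as bars on the same axis. The grey stretch of 414.7 kb without a called peak runs from inside MTAP, near its start, past the end of CDKN2B-AS1. The peaks beside it stay at or below 29.2 normalised tags within the 300 kb flanks.

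The edges of the stretch are called peaks by definition, so reads at them say nothing about the stretch itself. Local background, the normalised tags of a peak divided by its fold over the surrounding 10 kb, is the only measure of the reads around a peak, and it exists only where a peak was called. It was 1.84 and 2.28 at the 2 peaks inside MTAP, which lie within each other's surroundings, and 1.25 at the first peak above the stretch. The 80% of autosomal peaks in the middle of the range lay between 0.999 and 2.68. Over the 10 peaks of the window the median was 1.39 (95% interval of the median 1.06 to 2.28), with 1.14 in the lower flank (0.832 to 1.34, 4 peaks) and 1.66 in the upper (1.25 to 2.54, 4 peaks). The chromosome 9 median was 1.47. Taken singly, the windows of CDKN2A, CDKN2B and MTAP had medians of 1.54, 1.64 and 1.29. Within the stretch the list gives no tag count, so missing CTCF binding and missing reads of any kind cannot be told apart there. The header gives a threshold of 15 tags, or 7.81 normalised tags, and the smallest listed peak held 6.51, so sites weaker than about this are not in the list.

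RB1 (chromosome 13, 48303751 to 48481890) had 1 peak inside and stronger ones in both flanks. The inner peak lay 31.0 kb from the lower end of the gene and held 20.8 normalised tags (14.9 to 28.4). No other peak lay in the gene or within 70 kb of it. Below RB1, the peak 331 bp within ITM2B, a membrane protein gene, held 45.8 normalised tags. MED4, a Mediator subunit gene, had one of 137.2 (121 to 155) 103 bp outside its upper end. Above RB1 the peaks held 25.8, 63.2, 10.2, 20.6 and 130.4 (115 to 148), and lay 98.5 to 287.4 kb beyond the gene. Those of 63.2 and 130.4 lay outside protein-coding genes, 58.1 kb from the nearest gene end each.

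The stretch of 245.6 kb between the peak in RB1 and the next one above held the rest of RB1, the receptor gene LPAR6, which lies within RB1, and RCBTB2. Of all intervals between neighbouring peaks 4.43% were as long, and on chromosome 13 it was 7.33%. A stretch of 101.2 kb held the lower end of RB1 and the divergent RNA gene RB1-DT. Both ends of RB1 thus lay in stretches of more than 100 kb. Intervals of at least 101.2 kb made up 18.6% of all, and 27.3% of those on chromosome 13. Local background was 1.82 in the lower flank (1.55 to 2.51, 6 peaks) and 1.78 in the upper (1.23 to 2.13, 5 peaks), against 1.20 at the peak inside the gene and a chromosome 13 median of 1.42. The median over the window was 1.79 (1.55 to 2.13), and 72.6% of genes with a peak in their window had a median as low or lower.

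NF1 (chromosome 17, 31094977 to 31377675, plus strand), the longest member, held 3 peaks. They held 19.3 normalised tags (13.6 to 26.5) at 121.3 kb from the start, 11.7 (7.18 to 17.3) at 171.3 kb and 13.3 (8.84 to 19.8) at 4.32 kb before the upper end. All 3 were below the autosomal median. The start of NF1 lay in a stretch of 147.8 kb, from a peak of 43.7 (34.9 to 54.1) 26.5 kb outside the gene to the first peak within it. A second stretch of 107.1 kb held OMG, EVI2B and EVI2A, the genes nested in NF1. Stretches at least as long as these made up 10.9% and 17.3% of all intervals, and 5.07% and 8.76% of those on chromosome 17.

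The stronger peaks around NF1 lay above it. There, 6 peaks of 27.3, 55.2, 27.3, 78.9, 33.3 and 72.9 normalised tags followed, 4 of them inside RAB11FIP4, a gene of endosome recycling. Below it the values were 48.4, 17.7, 13.3, 21.9, 14.3 and 43.7. The peak of 48.4 lay 8 bp from the upper end of CRLF3, the only one of 9 neighbours with an end peak (11.1%, beside 28.2% of all genes). Local background reached 3.46 at the peak beside it, 1.48 kb away, and 4.49 at the peak of 78.9 in RAB11FIP4. The flank medians were 2.15 (1.38 to 3.46) below and 1.71 (1.33 to 4.49) above, beside a chromosome 17 median of 1.71.

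NF2 (chromosome 22, 29603556 to 29698600, plus strand) was the member richest in peaks. The peak over its start (29603438 to 29603786) held 13.3 normalised tags (8.84 to 19.8), stood 7.20-fold over its surroundings and had its centre 56 bp inside the gene, or 21 bp before the other listed start. Its focus ratio, which is high where tags of each strand fall on their own side of the centre, was 0.683, against an autosomal median of 0.847. Over the 5637 genes with an end peak, the strongest end peak had a median of 22.9 and quartiles of 11.5 and 50.2, so that of NF2 lay below the median and within the middle range. Within the gene 4 more peaks held 9.89, 29.9, 25.8 and 27.3 normalised tags at 5.78, 22.2, 32.3 and 86.5 kb from the start. Just above the gene, peaks of 15.9 and 12.0 lay 2.86 and 3.88 kb beyond its upper end.

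With 21 peaks, the NF2 window had 30.2 peaks per Mb (18.7 to 46.2), and 74.4% of genes had a window as sparse or sparser. Of 12 neighbours 6 had an end peak (50.0%, beside 28.2% of all genes). Among them were GAS2L1 at 48.9 normalised tags, THOC5, a subunit of the mRNA export complex THO, at 33.1 and MTMR3, a lipid phosphatase gene, at 24.5. The strongest peak of the window, 65.1 (54.2 to 77.5), lay in RFPL1. Local background was 1.64 below the gene (1.06 to 3.79) and 1.72 above it (1.20 to 2.03), with a chromosome 22 median of 1.62. The highest value, 3.79, belonged to the outermost peak of the lower flank.

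BAP1 (chromosome 3, 52401008 to 52410008) held no peak but lay in a short stretch. Its neighbours on either side were a peak of 36.4 normalised tags (28.4 to 46) 15.7 kb below, inside DNAH1, and one of 16.7 (11.4 to 23.5) 2.24 kb above, 1588 bp inside PHF7. These were 26.9 kb apart, compared with 414.7 kb around CDKN2A and CDKN2B. The strongest peak of the window, 109.1 (95 to 125), lay 37.2 kb above BAP1 and 2.12 kb beyond SEMA3G. Further peaks of 71.6, 68.5, 63.5 and 70.0 lay 169 to 278 kb below, in or beside POC1A, TLR9 and TWF2.

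The BAP1 window also covers PBRM1, another tumour suppressor on the same arm, which encodes a chromatin remodelling subunit. A stretch of 148.2 kb from a peak of 20.8 in NT5DC2 to a peak of 13 normalised tags in PBRM1 held UQCC5 and all of PBRM1 but its uppermost 3.72 kb. Of all intervals between neighbouring peaks 10.9% were as long. Of 20 neighbours of BAP1, 6 had an end peak (30.0%, near the 28.2% of all genes). The window had 29.6 peaks per Mb (17.5 to 46.7) and a median of 33.4 normalised tags per peak, the highest of the 6. Local background was 1.96 in the lower flank (1.59 to 2.61) and 1.54 in the upper (1.35 to 2.82), beside a chromosome 3 median of 1.73.

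APC (chromosome 5, 112707498 to 112846239, plus strand) had 1 peak inside and 1 just past its upper end. The inner peak held 26.0 normalised tags (19.3 to 34.3), 50.3 kb from the first listed start and 19.9 kb from the second, at 112737885. The peak past the upper end held 25 (18.4 to 33.1) at 2.19 kb, and the first peak below the gene 44.2 (35.3 to 54.7) at 15.6 kb. Peaks thus stood on both sides of APC and within it, with similar tag counts for the 2 nearest its body and end.

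Beyond APC, the strongest peak of the window lay 169 bp outside the upper end of REEP5, a gene of endoplasmic reticulum shape, with 77.6 normalised tags (65.6 to 91.1). EPB41L4A, at the far lower side, had 50.8 (41.4 to 62.2) at 509 bp from its end. MCC, a gene named for mutation in colorectal cancer, held 3 peaks of 26.3, 32 and 14.3 within the window. The local background rose to 2.93 at the first of these. It had a median of 1.44 in the lower flank (1.10 to 1.92) and 2.08 in the upper (1.25 to 2.93), with a chromosome 5 median of 1.44.

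**Figure D3:**
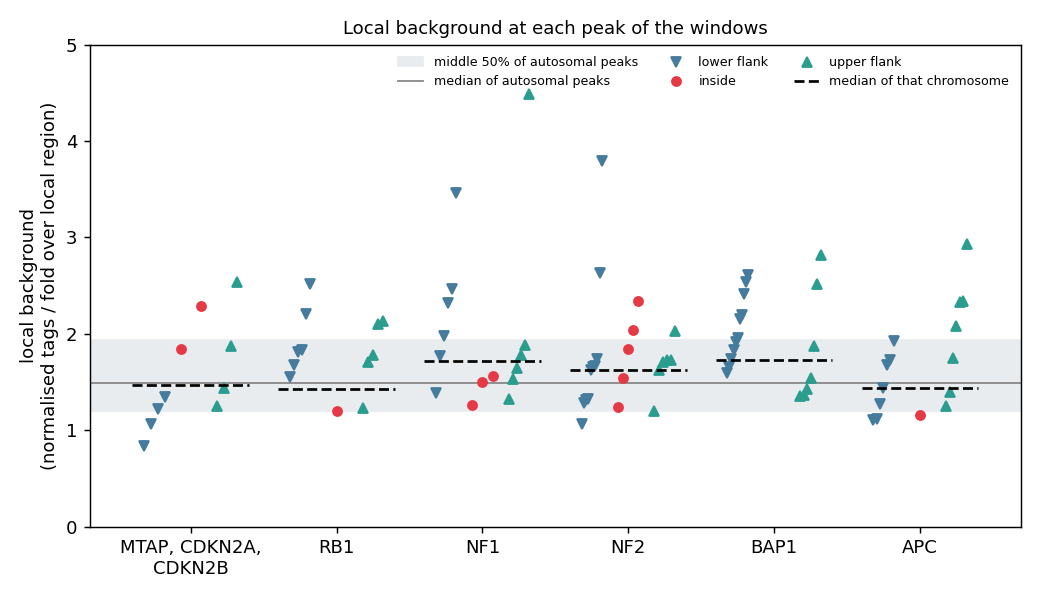
Points show the local background of each of the 91 peaks (y axis, normalised tags divided by fold over the surrounding 10 kb) by window (x axis), split into lower flank, inside and upper flank. Dashed lines are chromosome medians, and the grey band holds the middle 50% of autosomal peaks; the 9p21 peaks run from 0.832 to 2.54, and NF1 and NF2 hold the 3 highest values.

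Over the 6 windows together the local background was higher than over the autosomes at the median, and lower at the 90th percentile. The median over the 91 peaks was 1.72, against 1.49 over 41313 autosomal peaks. The quartiles were 1.39 and 2.09, against 1.20 and 1.93, and the 90th percentile was 2.52, against 2.68. A single peak, the one of 11.5 normalised tags 93.0 kb below MTAP with a background of 0.832, lay under the autosomal 10th percentile, and 5 lay above the 90th. None of those 5 was at 9p21. Window medians ran from 1.39 at 9p21, the only one of the 6 below the autosomal median, to 1.90 at BAP1. The 95% intervals of these 2 medians overlapped. Within 9p21, the windows of CDKN2A and CDKN2B taken singly had medians of 1.54 and 1.64, above the autosomal median. That of MTAP, at 1.29, was below it. Neighbouring peaks add tags to each other's surroundings, and their part in these values was not tested.

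The window limit fell within 3 kb of a peak at 4 edges. At the upper edge of 9p21 the last peak inside, 2.10 kb from the limit, held 25 normalised tags, and the first outside, 138 kb beyond it, held 25.5. Above RB1 the last peak inside, 12.6 kb from the limit, held 130.4 normalised tags, and the first outside, 1.61 kb beyond it, held 7.81. Above NF2 a peak of 8.07 lay 0.191 kb outside. Below NF2 the last peak inside, at 2.75 kb from the limit, held 48.9.

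**Figure D4:**
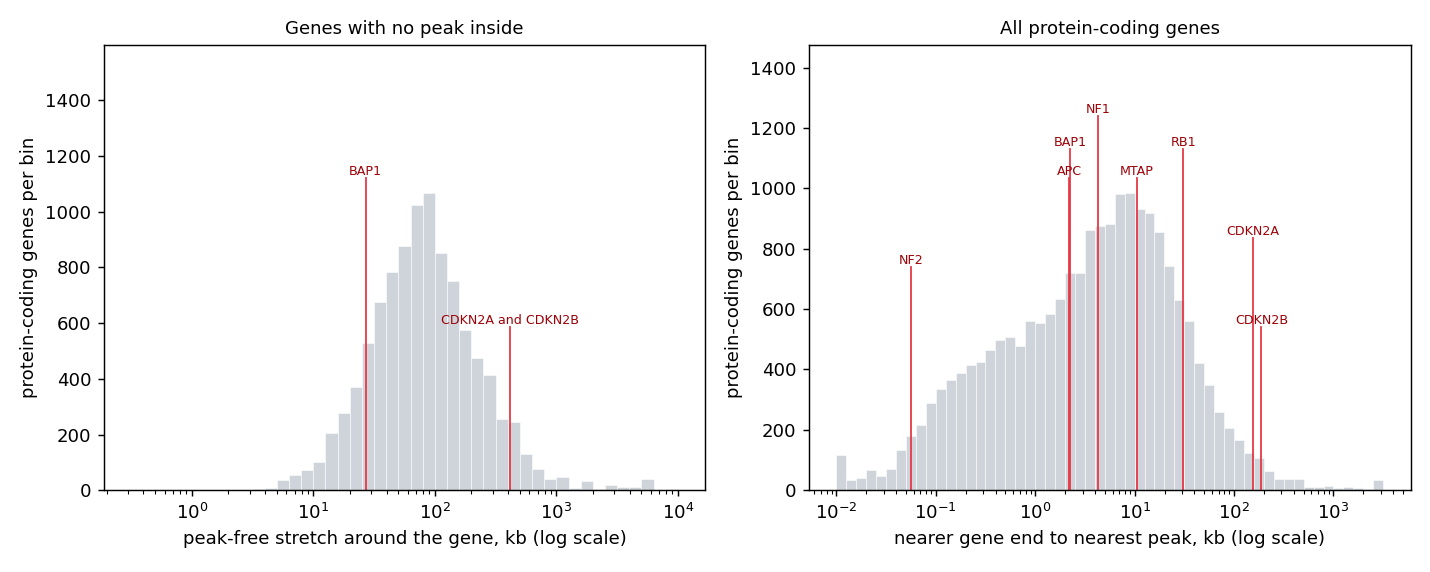
The left panel plots protein-coding genes without a peak inside by the length of the peak-free stretch around them, and the right panel plots all protein-coding genes by the distance from the nearer gene end to a peak (x axes in kb on log scales, y axes in genes per bin, values beyond the outermost bins counted in them). Red lines mark the members: CDKN2A and CDKN2B at 414.7 kb and BAP1 at 26.9 kb on the left, and NF2 at 56 bp to CDKN2B at 188.9 kb on the right.

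The pathways around the members were described in the same way, by genes with a peak within 1 kb of an end. Of 22 genes of the RB pathway 8 had one (36.4%, beside 28.2% of all genes). All 8 held less than the autosomal median of 20.3 normalised tags, from 9.63 to 17.7. Of the 5637 genes with an end peak, 46.55% had their strongest one below that median. The 8 were led by E2F4, an E2F factor, at 17.7 and CDKN2D, an INK4 inhibitor like CDKN2A, at 15.1. CDKN2C, the fourth INK4 gene, had 12.8, so that the INK4 family was split, with CDKN2A and CDKN2B far from any peak. This feature of the list was singled out after its values were seen.

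The lists around NF2 and APC had the higher shares. Of 16 Hippo genes 9 had an end peak (56.2%, beside 28.2% of all genes). The highest were MOB1A at 26.0 and STK4, a Hippo kinase, at 22.6. Below the autosomal median of 20.3 were 6 of the 9, beside 46.55% of all genes with an end peak. In the list of the beta-catenin destruction complex and its effectors it was 9 of 15 (60.0%). Below that median were 4 of these 9, near the share of 46.55%. The highest were APC2, the paralogue of APC, at 59.6 and the kinase gene GSK3B at 58.6. Shares near that of all genes were found for the RAS off switches (3 of 10, 30.0%, led by RASAL1 at 54.1). The same held for the BAP1 partners (4 of 12, 33.3%, led by HCFC1 at 53.1 and MBD5 at 18.0). Among 28 other tumour suppressors 10 had an end peak (35.7%), with ATM, a DNA damage kinase, at 48.9 among them. Of 8 genes of methionine salvage and polyamine synthesis, the pathway of MTAP, 1 had an end peak, ADI1 at 8.07. These counts are descriptions of 1 library, and the lists were not tested against each other.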

How the data were processed

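CTCF ChIP-seq was analysed in MDA-MB-435 cells from the peak list of asynchronous replicate 1. The other 3 samples were not analysed here. Bowtie2, HOMER and the build hg38 appear, without versions, in the submitters' processing notes. HOMER called the peaks per the file headers, in its factor style, at a false discovery rate of 0.001 (15 tags) and at least 4-fold over the surrounding 10 kb. The file's 42462 rows equal the header's total, and 42388 lie on chromosomes 1 to 22 and X.

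Per the file headers, the deposited signal is the tag count of a peak, normalised to 10000000 tags. The deposited fold is a ratio of tag densities, the deposited focus ratio a fraction of tags, and the deposited score the caller's own, all made by the authors' caller. The deposited p-value and the clonal fold were not used. All these describe and rank peaks only.

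Computed here were peak centres, distances to gene ends from a RefSeq table (GRCh38.p14), intervals between peaks, local background, exact Poisson intervals on tags rounded to whole numbers, and order-statistic 95% intervals of medians. Members and lists were chosen with earlier results of these data known. Named were all members, the genes in the stretch over CDKN2A, the protein-coding genes nearest to flank peaks that bound stretches of 100 kb or more, and up to 2 genes per list with the highest end peak; other neighbours and CDKN2C were added after their values were seen. Results on some genes of the windows and lists are not reported here. Distances were checked on simulated peaks. Alternatives varied peak threshold, window and merging. Exons and untranslated regions were not used here. The software was scipy 1.17.1, pandas 2.3.3 and numpy 2.4.6 under Python 3.11.15, with matplotlib 3.10.9 for plots.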

Additional observations from a re-analysis of the deposited data

How the results depend on the processing

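The peak-free stretch over CDKN2A was 431.1 kb when peaks below the median score were dropped and 415.6 kb when those under 8-fold over the local region were. At least as long a stretch then held 12.8% and 3.73% of all protein-coding genes, against 2.99% with every peak. The single member with an end peak, NF2, was lost under both restrictions (0 of 8 each), when 15.2% and 18.6% of all genes had one. It remained with a window of 500 bp, and 4 members had an end peak with 5 kb. The 91 peaks of the windows became 57 at or above the median score, 51 with 150 kb and 142 with 500 kb on each side. They stayed within 1.5 times with the 8-fold limit (72) and with peaks within 1 kb counted as 1 (89). The median local background at 9p21 stayed between 1.23 and 1.64 under its 5 alternatives, within the interval of the value reported. No paired analysis was possible because the peak list of 1 sample was used and no test was run. Depth and the caller's threshold limit the list to peaks of 6.51 normalised tags or more.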
